A study of Homo sapiens with 8 samples.

Results

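The 10 genes described here are targets of Wnt signalling or markers of intestinal stem and progenitor cells: LGR5, EPHB2, TCF7, ASCL2, SOX9, MYB, ETS2, MYC, CCND1 and MMP7. Every probe set whose only annotated symbol was one of these genes was taken, which gave 13 of the 22215 non-control probe sets, for 8 of the 10 genes. EPHB2 and TCF7 had no such probe set in the annotation used and were not analysed here. Intensities came from 8 Affymetrix human GeneChip arrays with 1 RNA sample each, and the study asked what happens to gene expression when the surface glycoprotein CD24 is depleted or bound by an antibody. The cells were 2 established cancer lines, HT29 from a colorectal tumour and Colo357 from a pancreatic tumour. Each line was measured untreated and after 72 h with the anti-CD24 monoclonal antibody SWA11 at a dilution of 1 to 40, with 1 array per state. A control antibody was not analysed here. The other 4 arrays were clones derived from HT29. One carried a vector for an shRNA against GFP, 1 carried 1 vector for an shRNA against CD24, and 2 carried 2 such vectors. Each clone is a single cell lineage, and parental HT29 was not cloned. The labels do not say whether arrays came from separate cultures, so the p-values below measure only the spread between these samples.

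Wnt ligands bind Frizzled and LRP receptors at the cell surface, which stops a destruction complex built on APC and AXIN from degrading beta-catenin. Beta-catenin then joins TCF/LEF factors on DNA and switches on target genes. At the base of the intestinal crypt this keeps stem cells dividing, and the pathway is active without ligand in most colorectal cancers. LGR5, the R-spondin receptor that marks crypt stem cells, SOX9, ASCL2 and MYB belong to the progenitor programme, MYC and CCND1 drive cell division, ETS2 is an ETS-family transcription factor that also responds to Ras signalling, and MMP7 (matrilysin) is a secreted matrix protease made by epithelial and tumour cells.

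RefSeq promoter sequences (GRCh38.p14) were at hand for 3 of the 8 measured genes. The 250 bases before the start of MMP7 and of MYB are shown because MMP7 was lowest and MYB highest in untreated HT29 among the 8 arrays, and both windows held a motif searched for. Capitals mark the TCF/LEF core, searched on both strands in the forms CTTTGAT and then CTTTGAA, with CTTTGTT as another form and CTTTGTA as the last form. They also mark the AP-1 site (its letters are TGAGTCA), searched on both strands. No marked motif overlaps another.
MMP7, minus strand, chr11:102530748-102530997: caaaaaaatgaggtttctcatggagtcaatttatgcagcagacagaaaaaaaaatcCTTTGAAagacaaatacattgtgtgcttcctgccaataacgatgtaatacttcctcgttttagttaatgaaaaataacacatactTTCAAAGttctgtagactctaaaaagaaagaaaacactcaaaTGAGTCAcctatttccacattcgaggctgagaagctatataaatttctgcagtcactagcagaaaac
MYB, plus strand, chr6:135181058-135181307: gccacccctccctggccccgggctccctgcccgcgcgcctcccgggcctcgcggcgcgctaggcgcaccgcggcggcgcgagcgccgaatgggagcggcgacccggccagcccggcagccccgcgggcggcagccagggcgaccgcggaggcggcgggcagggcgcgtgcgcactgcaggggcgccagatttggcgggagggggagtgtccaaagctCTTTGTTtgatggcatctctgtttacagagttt
MMP7 held CTTTGAA 194 bases before its start, the same core on the opposite strand (TTCAAAG) 109 bases before it, and TGAGTCA 67 bases before it. Of 35116 promoter windows of this length, 1.21% held 2 or more TCF/LEF cores, 4.2% held the AP-1 site and 20 (0.057%) held 2 or more cores with the AP-1 site. That combination is the one the MMP7 window itself holds, so its share is a description and not a test. The MMP7 window is rich in A and T, and the shares were not matched for base composition. MYB held 1 core, 33 bases before its start, in a window rich in G and C, and 12% of windows held at least 1. The 2 ETS2 windows held none of these letters.

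Over 6 CD24 probe sets, the mean of log2(intensity + 10) was 11.2 in parental HT29, 11.6 in the GFP shRNA clone, and 8.40, 7.78 and 8.39 in those with CD24 shRNA, all 3 below both controls. Colo357 read 9.65 untreated and 9.78 with antibody, and antibody-treated HT29 read 10.8. Of 8 intestinal epithelium markers, 3 read above 45, the median of all values, in untreated HT29: KRT20 (1117.1), LGALS4 (4581.5) and VIL1 (439.3). The intestinal transcription factors CDX1 and CDX2 read 6.5 and 3.2 there and at most 27 on any array. In untreated Colo357 also 3 of the 8 read above 45: VIL1 (1123.5), LGALS4 (139.6) and CDH17 (68.8). Of 8 pancreatic duct markers, 5 read above 45 in untreated Colo357 and also 5 in untreated HT29. Colo357 had the duct keratin KRT7 at 5468.1 and 7502.6, against at most 193.3 on HT29 arrays, but the duct markers SPINK1 and CFTR at 25.7 and 1.5 untreated, against 345.4 and 167.2 in untreated HT29. The 4 blood cell markers with a probe set summed to 32.6 to 157 per array and the 6 fibroblast markers to 117 to 249.4. The first 2-vector clone stood apart in its RNA controls, where the ratio of the 3′ to the 5′ ACTB control was 1.77 (other arrays 1.06 to 1.17) and the 18S 3′ control read 434.8 (other arrays 14.7 to 48). Member values in the clone comparisons are given with and without it.

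The members fell into patterns that can be seen in their intensities. MYB, on 204798_at, read 569.6 in untreated HT29 and 101.8 after antibody. Among the clones it read 139.1 with GFP shRNA, 104.9 with 1 CD24 vector, and 77.3 and 204.6 with 2. Colo357 read 66.3 untreated and 63.1 with antibody. Untreated HT29 was thus the highest of the 8 arrays, and no other array reached 205. The other MYB probe set, 215152_at, read 3 to 17.6 everywhere, so the gene rests on 1 probe set.

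LGR5 was dim but had the same leading array. On 213880_at it read 149.6 in untreated HT29, 48.9 after antibody, 23.1 with GFP shRNA, 11.2 with 1 CD24 vector, 21 and 72.9 with 2, and 6.8 and 1.2 in Colo357. On 210393_at it read 83.3 in untreated HT29, 46 after antibody, 14.5 to 27.3 in the 4 clones, and 11.3 and 3.3 in Colo357. Untreated HT29 was highest on both probe sets and Colo357 with antibody lowest. ASCL2, the crypt stem cell factor of the bHLH family, read 0.2 to 1.6 on all 8 arrays and showed no level that can be interpreted.

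MMP7 had the reverse order within the HT29 family. It read 227 in untreated HT29, the lowest of the 8 arrays, and 599.6 after antibody. Clones read 2531.9 with GFP shRNA, 1809.9 with 1 CD24 vector, and 2488.5 and 2074.9 with 2. Colo357 read 584.4 untreated and 288.4 with antibody. All 4 clones lay above all 4 uncloned arrays.

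CCND1, encoding cyclin D1, was also lowest in untreated HT29. On 208712_at it read 122.6 there, 164.3 after antibody, 784.4 with GFP shRNA, 210.1 with 1 CD24 vector, 393.5 and 463 with 2, and 1328.8 and 1755.6 in Colo357. The probe set 208711_s_at read 67.9, 143.6, 193, 89.1, 293.2, 182.8, 425 and 1060.3 in the same order of arrays. Both Colo357 arrays lay above all HT29 arrays on both probe sets.

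The remaining members were bright on every array. SOX9, an HMG-box factor of crypt progenitors, read 684.2 to 1362.4 over both probe sets on the 6 HT29 arrays and 252.2 to 424.2 in Colo357. MYC read 3178.5 in untreated HT29, 1303.7 after antibody, 2176 to 3750 in the clones, and 2296.8 and 2320.4 in Colo357. ETS2 on 201328_at read 1835.9 in untreated HT29, 333 after antibody, 3181.4 with GFP shRNA, 2308.9 with 1 CD24 vector, 1209.3 and 1798.9 with 2, and 980.9 and 853.8 in Colo357. For both MYC and this ETS2 probe set, antibody-treated HT29 was the lowest of the 8 arrays.

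Untreated HT29 stood at an end of the range for most members. Of the 9 member probe sets with a mean above 45 over all 8 arrays, it was the highest array for 3 (MYB and both of SOX9), against 11.1% of 11821 probe sets, and the lowest for 3 (MMP7 and both of CCND1), against 11.3%, or 22.4% at either end. SOX9 and CCND1 each entered with both of their probe sets, which are not independent of each other. This count was chosen after the values were seen and rests on 1 array, so a property of the line and one of that array cannot be told apart. It was again 6 of 9 under quantile normalization, where untreated HT29 was highest for 1298 and lowest for 1296 of 11734 probe sets. Without the filter it was 9 of 13, beside 2361 highest and 2590 lowest of 22215 probe sets. The unfiltered count adds the dim LGR5 probe sets and ASCL2, whose level cannot be interpreted.

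**Figure D1:**
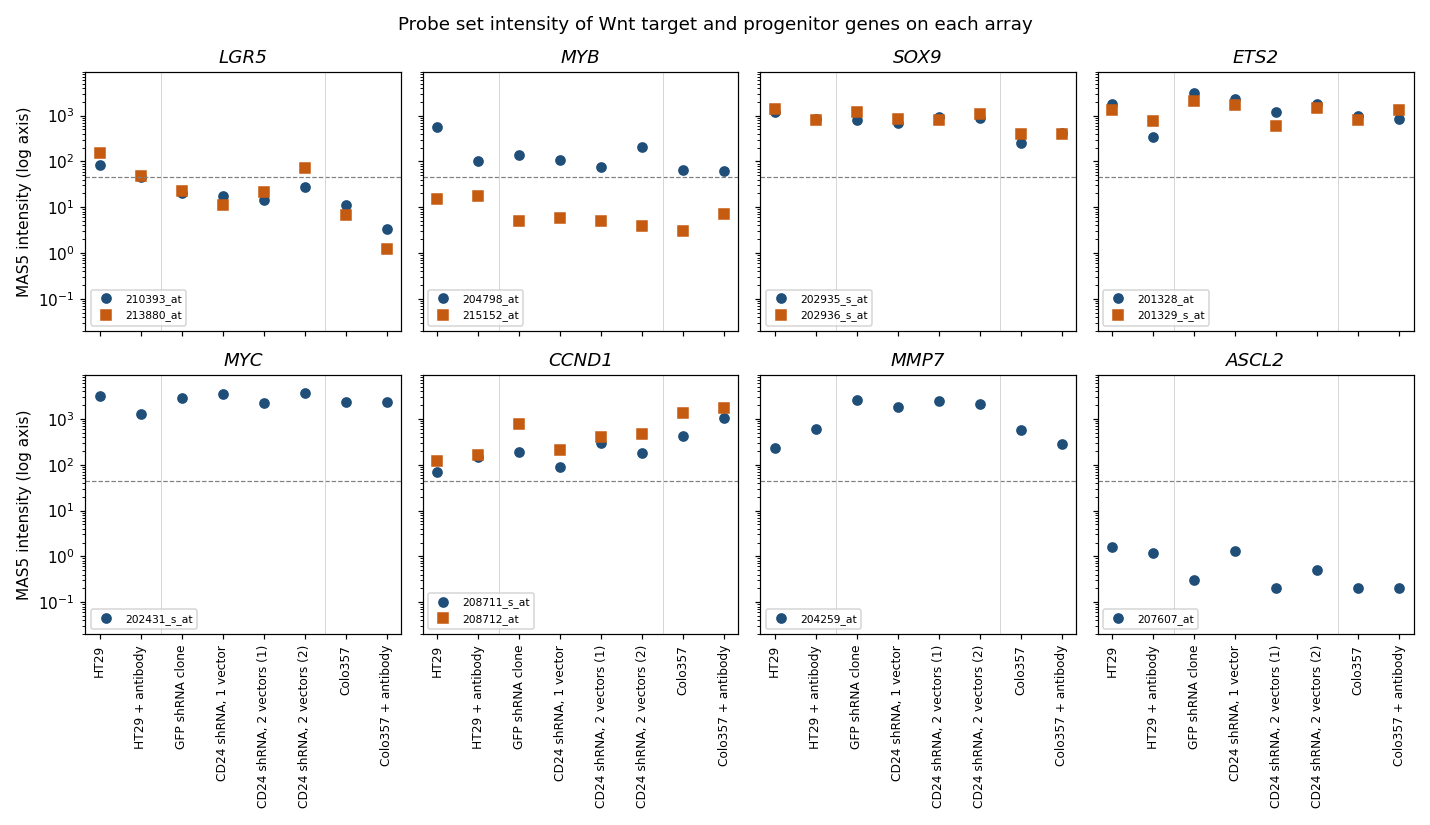
Intensity of each member probe set (vertical log axis, MAS5 units) on the 8 arrays (horizontal), 1 point per array, with 1 panel per gene and the dashed line at the median of all non-control values, 45. MYB and LGR5 peak in untreated HT29, MMP7 reads 1809.9 or more in the 4 clones, and ASCL2 stays at or below 1.6.

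The first comparison asked how far the colorectal and the pancreatic line differ in these genes. Differences are in log2(intensity + 10) throughout, which understates differences of dim genes, and a fold is taken from that scale. Colo357 had lower SOX9 and MYB and higher CCND1 than uncloned HT29, while ETS2, MYC and MMP7 did not pass the test. The untreated and the antibody-treated array of each line entered 1 limma fit with antibody as a block, so n was 2 arrays per line. Of 13 member probe sets, 10 had a mean above 45 over the 4 arrays and were tested, and 6 of these passed adjusted p 0.05 (2 higher, 4 lower in Colo357). Over all 11785 probe sets tested, 22.4% passed (12.8% higher, 9.52% lower). One of the 6, LGR5 on 213880_at, passed the filter through HT29 alone, so its direction was fixed by the filter and it is only described. The other 5 were 2 higher and 3 lower.

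CCND1 was 10.1-fold higher in Colo357 on 208712_at (log2 difference 3.34 ± 0.34, SE; limma adjusted p = 6.42e-06) and 6.24-fold higher on 208711_s_at (2.64 ± 0.34; 6.04e-05). Between the untreated arrays alone these differences were 3.34 and 2.48, and between the antibody-treated arrays 3.34 and 2.80. The CCND1 difference was thus of like size in both states.

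LGR5 on 213880_at read 149.6 and 48.9 in uncloned HT29 and 6.8 and 1.2 in Colo357, too dim there to give a ratio. SOX9 was 3.0-fold lower on 202935_s_at (-1.58 ± 0.37, SE; limma adjusted p = 0.00732) and 2.58-fold lower on 202936_s_at (-1.37 ± 0.35; 0.0131). MYB was 3.41-fold lower (-1.77 ± 0.46; 0.0138), but this mean joined unlike values: -2.93 between the untreated arrays and -0.61 between the antibody-treated arrays. SOX9 likewise differed by -2.17 and -1.76 without antibody and by -1.0 and -0.97 with it. A fit of all 8 arrays kept both CCND1 probe sets past the threshold and gave adjusted p = 0.0512 and 0.0656 for SOX9 and 0.134 for MYB.

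**Figure D2:**
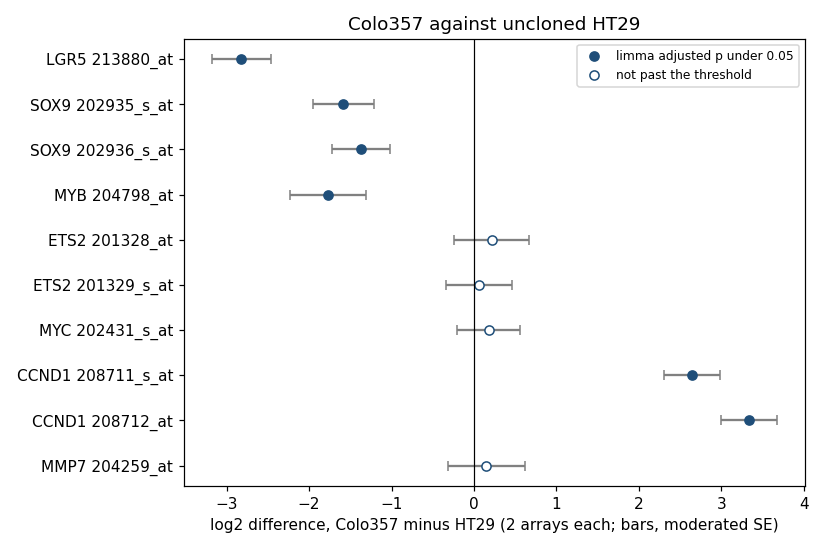
Log2 difference of Colo357 minus HT29 (horizontal) for the 10 member probe sets tested (vertical), from 2 arrays per line; bars are limma's moderated SE, and filled points passed adjusted p 0.05. CCND1 lies at 2.64 and 3.34, SOX9 and MYB lie between -1.77 and -1.37, and LGR5, at -2.82, passed the filter through HT29 alone.

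The second comparison asked what 72 h of anti-CD24 antibody changed in HT29. On the treated array 8 of the 11 member probe sets above the filter lay lower, beside 55.2% of all probe sets. MYB and 1 of the 2 ETS2 probe sets read more than 5-fold lower. MYC and LGR5 were also lower, while MMP7 and CCND1 were higher. The 2 arrays alone give no test. In a limma fit of all 8 arrays with 1 mean per group, whose spread comes from the 2 clones with 2 vectors alone, 0 of 11785 probe sets passed in HT29 and 135 had an unadjusted p under 0.05. Of 11 member probe sets above the filter, 4 were lower by 2-fold or more, against 8.13% of 11016 probe sets in all, and 1 was higher by 2-fold or more, against 4.64%. The median difference of the 11 was -0.78, beside -0.07 for all probe sets. Quantile normalization gave 620 higher and 624 lower probe sets at 2-fold in place of 511 and 896, and 6 member probe sets at 2-fold in place of 5.

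ETS2 differed most, by -2.43 (5.38-fold lower) on 201328_at, but by only -0.84 (1.79-fold lower) on 201329_s_at, so its probe sets disagreed on the size. In the fit of all 8 arrays the SE was 0.78 for the first of these and 0.88 for MYB (limma adjusted p = 1 for both). MYB differed by -2.37 (5.18-fold lower) and MYC by -1.28 (2.43-fold lower). LGR5 differed by -1.44 (2.71-fold lower) on 213880_at and -0.74 on 210393_at. SOX9 was at -0.44 and -0.78. MMP7 was 2.57-fold higher (1.36), and CCND1 was at 0.98 on 208711_s_at and 0.39 on 208712_at. In bulk RNA, fewer cells that express a gene and less RNA per cell cannot be told apart.

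In Colo357 the same antibody gave other values. Of 9 member probe sets above the filter, 1 was higher by 2-fold or more, against 10.2% of 11836 probe sets, and 0 were lower, against 14%. That 1 was CCND1 on 208711_s_at (1.30, or 2.46-fold), while 208712_at was at 0.40. ETS2 was at -0.20 and 0.70, MYC at 0.01, MYB at -0.06, and SOX9 at 0.73 and 0.01. MMP7 read 1.99-fold lower (-0.99). Untreated Colo357 had MYB at 66.3 and LGR5 at 6.8 and 11.3, and LGR5 was below the filter there. Of the 10 member probe sets tested over both lines, 5 had opposite signs in HT29 and Colo357, beside 31.9% of all.

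**Figure D3:**
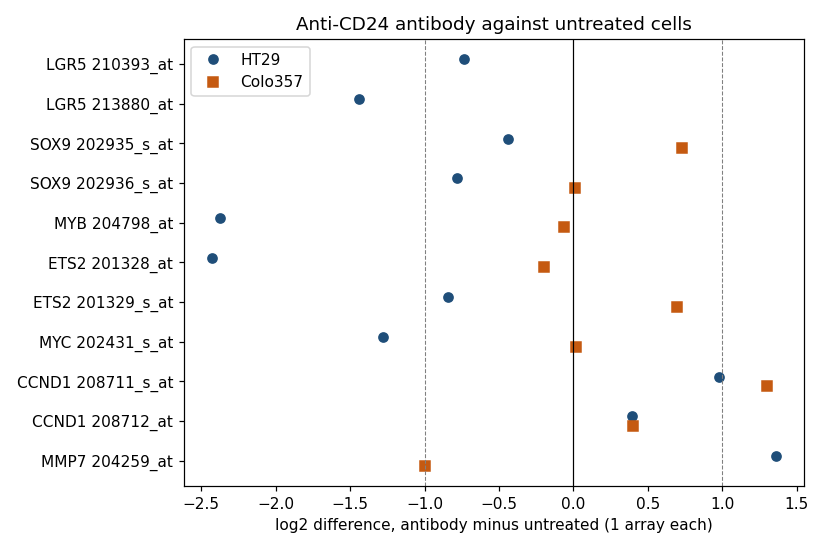
Log2 difference of antibody-treated minus untreated cells (horizontal) for member probe sets (vertical) above the filter in HT29 (circles) and, where also above it, in Colo357 (squares), 1 array against 1; dashed lines mark 2-fold. ETS2, MYB, MYC and LGR5 lie past -1 in HT29 on 1 probe set each, and MMP7 lies at 1.36 in HT29 and -0.99 in Colo357.

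Over both lines, limma with the line as a block tested what the 2 treated arrays shared (n = 2 lines, 1 residual degree of freedom). None of the 10 member probe sets tested passed adjusted p 0.05, against 5.63% of 11785 probe sets, and 4 of the 10 had an unadjusted p under 0.05, against 24.1% of all. CCND1 on 208711_s_at was nearest (1.14 ± 0.34, SE; adjusted p = 0.0637), and was higher in both lines, with adjusted p = 0.0708 to 0.481 over 5 alternatives. ETS2 on 201328_at was at -1.31 ± 0.45 (0.101) and MYB at -1.22 ± 0.46 (0.129), with most of each from HT29, since Colo357 alone gave -0.20 and -0.06. LGR5 on 213880_at was at -1.01 ± 0.36 (0.106), but its Colo357 values of 6.8 and 1.2 are too dim to give a direction there. Whether the 2 lines differ in their response was tested by a limma contrast in a fit of all 8 arrays with 1 mean per group, whose only residual degree of freedom comes from the 2-vector clones. One of those clones is the array whose RNA controls stood apart, so the SE and p take their spread from it, and without it this fit has no residual degree of freedom and gives no test. The difference of HT29 minus Colo357 was -2.31 ± 1.25 (SE) for MYB, -2.23 ± 1.11 for ETS2 on 201328_at and 2.36 ± 1.08 for MMP7, with adjusted p = 0.999945 for each. Of 11785 probe sets, that contrast called 0, while 113 reached an unadjusted p under 0.05.

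The third comparison set the HT29 clones against parental HT29. The GFP clone, which carries no CD24 shRNA, had far more MMP7 and more CCND1 than parental cells and less LGR5 and MYB. MMP7 differed by 3.42 (10.7-fold higher), CCND1 by 2.58 on 208712_at and 1.38 on 208711_s_at, LGR5 by -2.27 and -1.59, and MYB by -1.96. The 2 arrays alone give no test. In the limma fit of all 8 arrays described above, the SE was 0.83 for MMP7 (adjusted p = 0.146), 0.83 for CCND1 on 208712_at (0.353) and 0.90 for MYB (0.845), and 41 of 11773 probe sets passed, 0 of them members. Of 11 member probe sets above the filter, 3 were higher by 2-fold or more, against 15.2% of 11773, and 3 lower, against 6.35%. The 3 lower were MYB and both LGR5 probe sets. LGR5 read 20.9 and 23.1 in the GFP clone and passed the filter through parental HT29 alone. Its direction was thus fixed by the filter, and it is only described. Quantile normalization left 6 member probe sets at 2-fold and gave 1286 higher and 1116 lower probe sets in place of 1792 and 748.

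The 3 CD24 shRNA clones differed from parental HT29 in the same directions for these genes. MMP7 was 7.68-fold, 10.5-fold and 8.80-fold higher in the 1-vector clone and the 2-vector clones. MYB was 5.04-fold, 6.64-fold and 2.70-fold lower. LGR5 on 213880_at read 11.2, 21 and 72.9, against 149.6 in parental HT29. CCND1 on 208712_at was 1.66-fold, 3.04-fold and 3.57-fold higher.

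All 4 clones were then compared with parental HT29 in 1 limma fit, where the lone parental array was assumed to vary like the clones. Every clone lay above parental HT29 for 3 member probe sets (MMP7 and both of CCND1), against 27.3% of 11420 probe sets, and below it for 4 (LGR5, MYB and both of SOX9), against 23.8%. LGR5 was below 45 in 3 of the 4 clones and owed its place above the filter mostly to parental HT29. None of the 10 passed adjusted p 0.05, against 0.131% of all, and 3 had an unadjusted p under 0.05, against 10.4% of all. MMP7 came nearest, with a log2 mean of 11.1 ± 0.23 (SD, n = 4) in the clones, 7.89 in parental cells and a difference of 3.22 ± 0.42 (SE; adjusted p = 0.0899). Every clone was at least 2-fold higher for 5.66% of probe sets, MMP7 among them, and at least 2-fold lower for 1.96%, MYB among them.

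MYB differed by -2.11 ± 0.58 (SE; limma adjusted p = 0.286) and LGR5 on 213880_at by -2.12 ± 0.75 (0.408). Without the first 2-vector clone MMP7 was at 3.17 (adjusted p = 0.187), MYB at -1.91 and LGR5 at -2.04, CCND1 at 1.01 and 1.72, and SOX9 at -0.58 and -0.40. With antibody-treated HT29 added as a second uncloned array, MMP7 was at 2.54 (adjusted p = 0.0303) and was the 1 member past the threshold, while MYB was at -0.93. Over the 10 alternatives the adjusted p for MMP7 ran from 0.0303 to 0.414. The SOX9 probe sets were lower by about 0.5 (-0.51 ± 0.42 and -0.50 ± 0.44). ETS2 and MYC differed by -0.08 to 0.12 on average (0.08 to 0.36 without that clone) and lay on both sides of parental HT29.

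**Figure D4:**
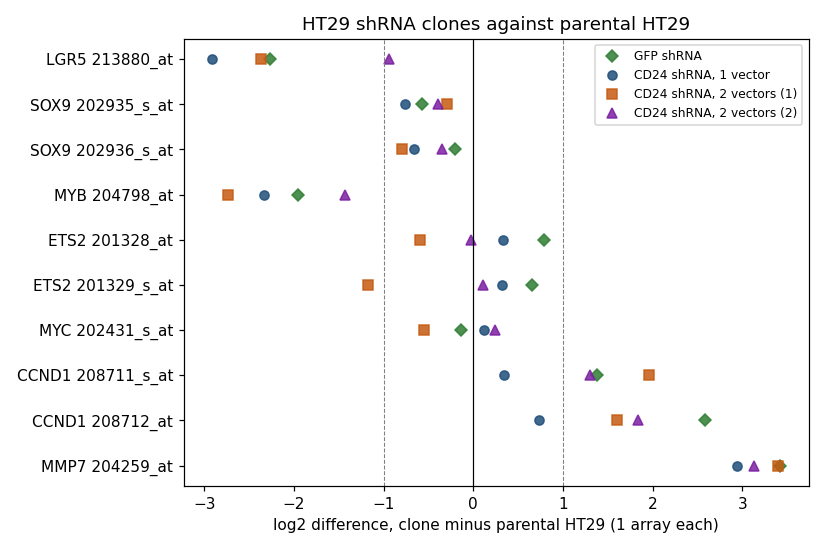
Log2 difference of each HT29 clone minus parental HT29 (horizontal) for the 10 member probe sets above the filter (vertical), 1 point per clone; dashed lines mark 2-fold. MMP7 lies at 2.94 to 3.42 and MYB at -2.73 to -1.43 in the 4 clones, and the GFP clone has the highest MMP7 of the 4.

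The fourth comparison set the 3 CD24 shRNA clones against both controls, parental HT29 and the GFP clone. None of the 10 member probe sets passed limma's adjusted p 0.05, and none had an unadjusted p under 0.05, against 19.4% of 11420 probe sets. Over all probe sets 0 (0%) passed, and 2211 reached an unadjusted p under 0.05. The lowest adjusted p among members was 0.34, for MYB (-1.19 ± 0.66, SE). MYB averaged 7.01 ± 0.66 (SD, n = 3) in the CD24 shRNA clones and 8.20 ± 1.39 (SD, n = 2) in the controls, whose spread came from 569.6 in parental cells and 139.1 in the GFP clone.

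MMP7 was at 1.45 ± 0.89 (SE; adjusted p = 0.383) against both controls, and at -0.26 against the GFP clone alone. CCND1 on 208712_at turned in the same way, from 0.10 to -1.19. The second SOX9 probe set (202936_s_at, -0.50 ± 0.35) was the 1 member probe set whose 3 clones did not overlap the controls, beside 40.1% of all probe sets. Without the first 2-vector clone, MYB was at -0.90 (limma adjusted p = 0.675), MMP7 at 1.33 (0.667), CCND1 on 208712_at at -0.01 (0.998) and this SOX9 probe set at -0.40 (0.752). ETS2 was lower than in the GFP clone in all 3 CD24 shRNA clones, by 0.46, 1.39 and 0.82 on 201328_at and by 0.33, 1.82 and 0.54 on 201329_s_at, as differences from that single array. The largest of these belonged to the first 2-vector clone, whose RNA controls stood apart; their part in it was not tested.

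Between clones with 1 and 2 vectors the members gave mixed values. CCND1 on 208712_at was 1.83-fold and 2.15-fold higher in the 2-vector clones than in the 1-vector clone, and on 208711_s_at 3.06-fold and 1.95-fold higher. MYB was 1.32-fold lower in the first 2-vector clone and 1.87-fold higher in the second. MMP7 was 1.37-fold and 1.15-fold higher. LGR5 was at most 21 in the first 2-vector clone and at most 17.3 in the 1-vector clone, too dim for a ratio. ETS2 was 1.90-fold and 1.28-fold lower on 201328_at and 2.82-fold and 1.16-fold lower on 201329_s_at. CCND1 and MMP7 thus lay higher and ETS2 lower in both 2-vector clones, and MYB lay on both sides, on 3 arrays and without a test.

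Other genes of the pathway were taken from lists of pathway members, each gene by its brightest probe set. In Colo357 against HT29, 4 of 6 Wnt ligand and secretion genes above the filter were higher and 1 lower at limma adjusted p 0.05, beside 12.8% and 9.52% of all probe sets, which also bear on the list counts that follow. The 4 higher were WNT5B, WNT5A, WNT10B and WNT7B, and all of them passed the filter through Colo357 alone. Their direction was thus fixed by the filter, and they are only described. WNT5B, WNT5A and WNT10B read at most 13.3 in uncloned HT29, and WNT7B read 27.7 and 19.1. WNT5B read 170.1 and 263.9 in Colo357, WNT5A 178.4 and 149.4, WNT10B 77.7 and 83, and WNT7B 90.6 and 44.6. WLS, which carries Wnt ligands to the cell surface, was lower (-1.16 ± 0.34, SE; adjusted p = 0.0261). Of 11 receptor genes 3 were higher and 2 lower, with the co-receptor LRP5 at -2.08 ± 0.38 (0.00114). The Frizzled receptor FZD10 read 4599.7 and 1221.6 in Colo357 and at most 16.6 on HT29 arrays, so it too passed the filter through Colo357 alone. The same held for FZD2 (219.3 and 345.6 in Colo357, 32.4 and 25 in uncloned HT29) and FZD1 (121.6 and 63, 25 and 42.3). The receptor ROR1 passed it through HT29 alone (162.4 and 30, against 7.2 and 4.4 in Colo357). The directions of these 4 receptor genes were thus fixed by the filter.

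Of 16 other Wnt targets, 2 were higher and 5 lower in Colo357, and the median difference was -0.15, beside -0.03 for all probe sets. The 2 higher were TIAM1 (130.9 and 110.7 in Colo357, 13.3 and 10.2 in uncloned HT29) and CLDN1 (224 and 466, 40.6 and 20.9). Both passed the filter through Colo357 alone, so their direction was fixed by it. ENC1 was among the 5 lower (-2.92 ± 0.37, SE; limma adjusted p = 5.41e-05). BMP4, a secreted growth factor, read 1248.5 and 819.3 in uncloned HT29 and 4.1 and 2.2 in Colo357, and passed the filter through HT29 alone. Of 2 inhibitor and feedback genes above the filter, the ubiquitin ligase RNF43 was lower (-2.41 ± 0.38; 0.000374). Of 6 other progenitor genes, 2 were higher and 1 lower, with a median of 0.52. The inhibitor of differentiation ID3 read 435 and 1818 in Colo357 against 3.1 and 4.6 in uncloned HT29, and PROM1, the CD133 surface marker of progenitors, read 8.5 and 1.8 against 201.8 and 90.6, so each passed the filter through 1 line alone. Among 14 genes of the beta-catenin, Dishevelled and destruction complex list 2 were higher and 0 lower, and CTNNB1, beta-catenin itself, was at 0.70 ± 0.34 (0.164). Of the 2 higher, CSNK1E (126 and 264.4 in Colo357, 40.4 and 25.8 in uncloned HT29) passed the filter through Colo357 alone.

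Over both lines, LRP5 fell with antibody (-1.77 ± 0.38, SE; limma adjusted p = 0.0203) and so did the scaffold AXIN1 (-1.61 ± 0.34; 0.0201). The urokinase receptor PLAUR rose (1.67 ± 0.35; 0.0187), as did KLF4, a factor of differentiated intestinal cells (1.59 ± 0.35; 0.0223). These were the called members of the pathway and differentiation lists, 1 of 11 receptors, 1 of 14 destruction complex genes, 1 of 16 other targets and 1 of 5 differentiation genes, against 5.63% of all probe sets. AXIN1 read 188.4 and 45.3 in HT29 and 168.5 and 58.4 in Colo357, untreated and treated. No probe set at all passed in this comparison with quantile-normalized values, with dim probe sets kept, or with all 8 arrays in the fit.

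In HT29 alone, 9 of 10 TCF/LEF factors and nuclear cofactors lay lower after antibody (median -0.53), beside 55.2% of all probe sets, but 0 by 2-fold, and TCF7L2, the main TCF factor of the colon, was at -0.96. Among the 9, BCL9 (70.9 untreated, 38.1 treated) and EP300 (55.1 and 37.1) passed the filter through the untreated array alone. PTPRO (-1.12) and PROM1 (-1.07) were lower among 4 other progenitor genes, with a median of -0.98 for the 4. Of 14 other Wnt targets 8 were higher and 6 lower (median 0.07), from PLAUR at 1.37 to the ion cotransporter SLC12A2 at -2.02. The 4 differentiation genes above the filter were all higher, KLF4 by 1.87, and so were the 4 intestinal markers above it, beside 44.8% of all probe sets. KLF4 (43.9 untreated, 187.6 treated), DPP4 (34.9 and 64.4) and CDHR5 (29.4 and 103.6) passed the filter through the treated array alone. Their direction was thus fixed by the filter. KRT20, at 1.84, and VIL1, at 1.66, were above 45 on both arrays. In the 4 clones the secreted Wnt inhibitor DKK1 read 1373.6 to 5544.2, against 206.2 in parental HT29 (3.66 higher; limma adjusted p = 0.195), and 11 of 12 TCF/LEF and cofactor genes had a positive difference (median 0.48, all probe sets -0.04), beside 47.9% of all probe sets, 0 past the test. Of the cofactor genes, TLE2 and TLE4 read 36.5 and 29.6 in parental HT29 and passed the filter through the clones alone. Of the 3 intestinal markers above the filter in the clones, 1 was higher and 2 were lower, none past the test. KRT20 was at 1.82, VIL1 at -2.50 and LGALS4 at -4.65, and their part in the members' values was not tested.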

How the data were processed

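Files held 1 linear intensity per probe set and array. The submitters' processing notes name MAS5 for these intensities, as the authors deposited them; the sources used here give no version. The trimmed mean (2% off both tails) came to 250.1 on all 8 arrays, and no further scaling was applied. Detection calls were not given in the sources used here, and the number of arrays limits the precision. The platform annotation gave 1 symbol to 19064 of 22215 non-control probe sets, several to 1043 and none to 2108, with 19052 symbols updated through RefSeq (GRCh38.p14). Values were log2(intensity + 10). A comparison used probe sets whose mean over its arrays exceeded 45, the median of all non-control values. Fits used limma 3.58.1 in R 4.3.3 over all such probe sets, with two-sided, Benjamini-Hochberg adjusted p-values, and were tested on simulated data. SE is limma's moderated SE. All member probe sets are described, and from each list at most 4 genes per comparison, those that differed most. Further genes are named where the filter fixed their direction. Alternatives were the pseudocount (1, 50), the filter, quantile normalization, the brightest probe set per gene, other controls and leaving out arrays. The members and lists were chosen with earlier results of these data known.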

Additional observations from a re-analysis of the deposited data

Results flagged for a closer look

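For 3 member probe sets the antibody-treated array lay on opposite sides of the untreated array in the 2 lines by at least 1.25-fold. MMP7 on 204259_at differed by 1.36 on the log2 scale in HT29 and by -0.99 in Colo357. ETS2 on 201329_s_at differed by -0.84 in HT29 and by 0.70 in Colo357, while its other probe set was negative in both. SOX9 on 202935_s_at differed by -0.44 in HT29 and by 0.73 in Colo357, and its other probe set was at -0.78 and 0.01. By any amount, 31.9% of all probe sets above the filter had opposite signs in the 2 lines, as did 5 of the 10 member probe sets tested. The share of all probe sets at 1.25-fold or more was not computed, so the 3 members have no like share beside them. The limma contrast of the lines called none of these 3, with adjusted p = 0.999945 for each.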

How the results depend on the processing

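Of 49 recomputed counts of member probe sets, 44 stayed within 1.5 times the reported count. The count for Colo357 against HT29 was 3 in place of 6 in the fit of all 8 arrays. For all 4 clones it was 1 in place of 0 with antibody-treated HT29 added. For the antibody in Colo357 it was 2 in place of 1 with pseudocount 1 and under quantile normalization, and 0 with the brightest probe set per gene, which drops the second CCND1 probe set. Leaving out 1 clone kept the member count at 0 in both clone fits. Counts over all probe sets moved more. For the antibody over both lines 663 became 79 with pseudocount 1, 439 with pseudocount 50, 25 of 7153 genes by brightest probe set, and 0 without the filter, under quantile normalization or with all 8 arrays. For Colo357 against HT29, 2636 became 1165 with all 8 arrays. For the 4 clones 15 became 24 with pseudocount 1, 5 with pseudocount 50, 0 without the filter, 28 without the GFP clone, 0 without any 1 CD24 shRNA clone, and 268 with the second uncloned array. For the CD24 shRNA clones 0 became 3 with pseudocount 50, 28 against parental HT29 alone and 1119 without the second 2-vector clone. Quantile normalization moved the median of all probe sets from -0.07 to 0.11 in the CD24 shRNA comparison and from 0.12 to -0.05 for the GFP clone. The cause of these changes was not tested. No called member difference changed sign. No paired analysis was possible because the groups compared share fewer than 2 replicate numbers, with 1 array in most groups; the antibody fit over both lines had the line as a block.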
